A study of Mus musculus with 8 samples.

Results

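Cathepsins are the proteases of the lysosome, the acidic compartment in which macrophages degrade what they have engulfed. The 10 genes described here, Ctsa, Ctsb, Ctsc, Ctsd, Ctsf, Ctsh, Ctsk, Ctsl, Ctss and Ctsz, were taken by symbol from 22558 gene symbols in the series, and each had 1 entry with a usable estimate in all libraries. The series asked how messenger RNA differs between macrophages that enter the injured mouse retina and the microglia that live there. It holds 8 sequencing libraries, 4 of infiltrating macrophages (numbered 5 to 8 in the labels) and 4 of microglia (numbered 1 to 4). Apart from the population, every library has the same labels: genotype Msi1-CreERT2/+; R26R-DTA/+, a mixed C57BL/6 and 129 background, an age of about 5 months, and retina collected on day 7 of injury. Both populations therefore come from injured retina, and no uninjured retina is in the comparison. Msi1-CreERT2 is a tamoxifen-inducible recombinase driven from the Msi1 gene, and R26R-DTA makes diphtheria toxin A in cells where the recombinase has acted. The titles of the macrophage libraries name GFP, but the genotype lists no GFP allele, and how the cells were separated is not given in the sources used here. No label states that each library is its own animal, so the spread behind the p-values may be technical.

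Most cathepsins are cysteine proteases of the papain family (Ctsb, Ctsc, Ctsf, Ctsh, Ctsk, Ctsl, Ctss and Ctsz). Ctsd is an aspartic protease and Ctsa a serine carboxypeptidase. They are made as inactive precursors, carried to the lysosome largely by mannose 6-phosphate receptors, activated there by acid and by one another, and held in check by cystatins and related inhibitors. In macrophages and microglia they break down engulfed debris, and some of them trim the invariant chain and antigens for display on MHC class II. Loss of Ctsd or of Ctsf is known to cause storage disease of neurons.

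Infiltrating macrophages held less Ctsd, Ctsl and Ctsf messenger RNA than microglia, while the abundant cysteine cathepsin Ctss had close mean levels in both. Of the 9 cathepsins that could be tested, 3 were lower in infiltrating macrophages and 0 were higher, by limma at an adjusted p below 0.05 over all 9352 genes tested (4 lower and 0 higher at an unadjusted p below 0.05). With a term for Y-linked RNA, which most microglial libraries held and the macrophage libraries nearly lacked, 0 of the 9 were called, and with no filter on low values 1 was. Of all tested genes 2.34% were called in either direction, 0.695% lower and 1.65% higher, and 15% had an unadjusted p below 0.05 by limma. The same 3 cathepsins were those whose libraries did not overlap between the populations, which held for 7.63% of all tested genes (1.95% lower, 5.69% higher). Ctsk did not reach the level required for testing, 1 FPKM in at least 4 libraries. The median log2 fold change of the 9 was -0.82, against 0.37 for all tested genes. Scaling moved the median of all tested genes to 0.48 (equal FPKM sums), 0.27 (upper quartile), 0.16 (median of ratios) and -0.03 (quantile), and of all called genes 72.5%, 59.5%, 55.4% and 53.4% were then higher in infiltrating macrophages, against 70.3% as deposited. Ctsd, Ctsl and Ctsf were called lower under each of these 4 scalings. Levels are given as FPKM, in which fragment counts are divided by transcript length and library size. Each fold change is a difference of mean log2(FPKM + 1), infiltrating macrophages minus microglia, and comes out too small for genes of low level. In bulk RNA, fewer cells of a type and less RNA per cell cannot be told apart.

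The start regions of the 3 lower cathepsins are printed because all of them held the letters CACGTG, the E-box that TFEB and related lysosomal regulators are known to bind. That of Ctss is printed as an abundant cathepsin that was not called. Each is 300 bases of RefSeq, 250 before and 50 after the gene's start, on build GRCm38.p6, written 5′ to 3′ along the gene. Capitals mark CACGTG, or GAGGAAGT on either strand, a motif of the myeloid factor PU.1.
Ctsd, chr7:142387778-142388077, minus strand: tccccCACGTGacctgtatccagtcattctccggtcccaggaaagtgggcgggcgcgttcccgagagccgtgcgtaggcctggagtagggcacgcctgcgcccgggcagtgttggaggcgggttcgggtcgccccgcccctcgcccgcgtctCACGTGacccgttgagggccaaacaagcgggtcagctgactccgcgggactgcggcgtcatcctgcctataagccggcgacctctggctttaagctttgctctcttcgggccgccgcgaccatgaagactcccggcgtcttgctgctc
Ctsl, chr13:64370471-64370770, minus strand: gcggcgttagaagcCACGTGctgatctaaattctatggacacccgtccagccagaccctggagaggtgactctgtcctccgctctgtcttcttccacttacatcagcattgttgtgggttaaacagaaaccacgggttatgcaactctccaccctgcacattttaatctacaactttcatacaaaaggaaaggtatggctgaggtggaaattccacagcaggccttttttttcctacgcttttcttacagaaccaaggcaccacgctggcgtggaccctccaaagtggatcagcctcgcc
Ctsf, chr19:4854915-4855214, plus strand: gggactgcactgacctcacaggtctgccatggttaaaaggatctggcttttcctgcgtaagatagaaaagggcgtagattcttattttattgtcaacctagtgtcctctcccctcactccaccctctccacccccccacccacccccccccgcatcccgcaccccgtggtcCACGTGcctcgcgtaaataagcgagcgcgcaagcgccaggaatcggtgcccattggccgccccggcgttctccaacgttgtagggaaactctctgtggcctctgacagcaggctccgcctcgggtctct
Ctss, chr3:95526536-95526835, plus strand: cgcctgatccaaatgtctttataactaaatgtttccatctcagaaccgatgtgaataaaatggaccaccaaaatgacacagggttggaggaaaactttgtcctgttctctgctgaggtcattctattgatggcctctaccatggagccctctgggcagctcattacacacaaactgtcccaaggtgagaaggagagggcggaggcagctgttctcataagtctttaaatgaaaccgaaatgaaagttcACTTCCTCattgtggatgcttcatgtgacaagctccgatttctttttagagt
Counted from the 5′ end of the window, CACGTG began at bases 6 and 153 in Ctsd, at base 15 in Ctsl and at base 172 in Ctsf. Of 32851 windows in the RefSeq table, 7.15% held it. The table has 9 windows for 8 of the 10 cathepsins (2 windows for Ctsa), and 4 of the 9 held CACGTG, those of Ctsd, Ctsl and Ctsf and 1 of Ctsa, which was not called. GAGGAAGT was in the windows of Ctss (from base 249, minus strand) and Ctsc (from base 100, minus strand), and in 3.2% of all windows. The GC box GGGCGG was in 5 of the 9 windows and in 35.7% of all. TATAAA was in 1 of the 9, that of Ctss, and in 13.6% of all. The CLEAR consensus, a longer motif that contains CACGTG, was in 0 of the 9 windows, those of Ctsd, Ctsl and Ctsf included, and in 0.326% of all. All of these motifs were searched on both strands, and a match is one of letters only. No window was available for Ctsb or Ctsh, and those of Ctsa, Ctsc, Ctsk and Ctsz are not printed.

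Ctsd (chromosome 7, 149561821 to 149573775 on mm9, the build of the files) encodes cathepsin D, the main aspartic endopeptidase of lysosomes. It stood at 2139, 4293, 3932 and 1750.3 FPKM in infiltrating macrophages 5 to 8, against 12527, 9296, 14608 and 16462 FPKM in microglia 1 to 4. Every macrophage library was well below every microglial library, and macrophages 6 and 7 were the higher pair among the macrophages. Ctsd ranked between 4 and 11 among all genes in the macrophage libraries, and 1 or 2 in the microglial libraries. Its mean was 3029 ± 1270 FPKM in infiltrating macrophages and 13223 ± 3072 FPKM in microglia (SD, n = 4 each). It fell by 2.20 on the log2 scale (SE 0.44, 95% interval -3.10 to -1.30, limma adjusted p = 0.00464). The call was lost without macrophage 5 (adjusted p = 0.0801, log2 fold change -2.06), without microglia 2 and 3 together (0.103, -2.35), without microglia 1, 2 and 3 together (0.636, -2.54), with no filter on low values (0.241, -2.20) and with a term for Y-linked RNA (0.247, -2.25).

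Ctsl (chromosome 13, 64464522 to 64471614, mm9) is a lysosomal cysteine endopeptidase of broad specificity. It stood at 45.0, 95.2, 36.6 and 44.7 FPKM in infiltrating macrophages 5 to 8 and at 386, 201, 354 and 309 FPKM in microglia 1 to 4. In FPKM, macrophage 6 was well above the other 3 macrophage libraries and still under the lowest microglial library. As a share of the library's own FPKM sum, Ctsl in macrophage 6 was close to macrophages 7 and 8. The ratio of highest to lowest macrophage library was 2.60 in FPKM and 1.24 in these shares. The means were 55.4 ± 26.8 FPKM in infiltrating macrophages and 313 ± 81.1 FPKM in microglia (SD, n = 4 each). Ctsl fell by 2.54 (SE 0.48, 95% interval -3.53 to -1.55, limma adjusted p = 0.00295), and its adjusted p was 0.0524 with no filter on low values, 0.243 with the Y-linked term and 0.417 without microglia 1, 2 and 3 together.

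Ctsf (chromosome 19, 4855129 to 4860912, mm9) is a cysteine cathepsin with an unusually long propeptide. It stood at 1.98, 4.91, 2.55 and 2.14 FPKM in infiltrating macrophages 5 to 8 and at 23.2, 25.03, 34.5 and 37.9 FPKM in microglia 1 to 4. The populations were far apart, although Ctsf was the least abundant of the 3 genes in both. Its log2 fold change was the lowest among the 9 tested cathepsins, -3.03 (SE 0.61, 95% interval -4.29 to -1.77, limma adjusted p = 0.00528). An exact permutation test of each of Ctsd, Ctsl and Ctsf gave an unadjusted two-sided p of 0.0286, the smallest that 4 against 4 libraries allow. Any gene without overlap gets this value, so it adds nothing to the lack of overlap given above. GENCODE vM1 on mm9 places 0 other genes over these 3 loci.

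**Figure D1:**
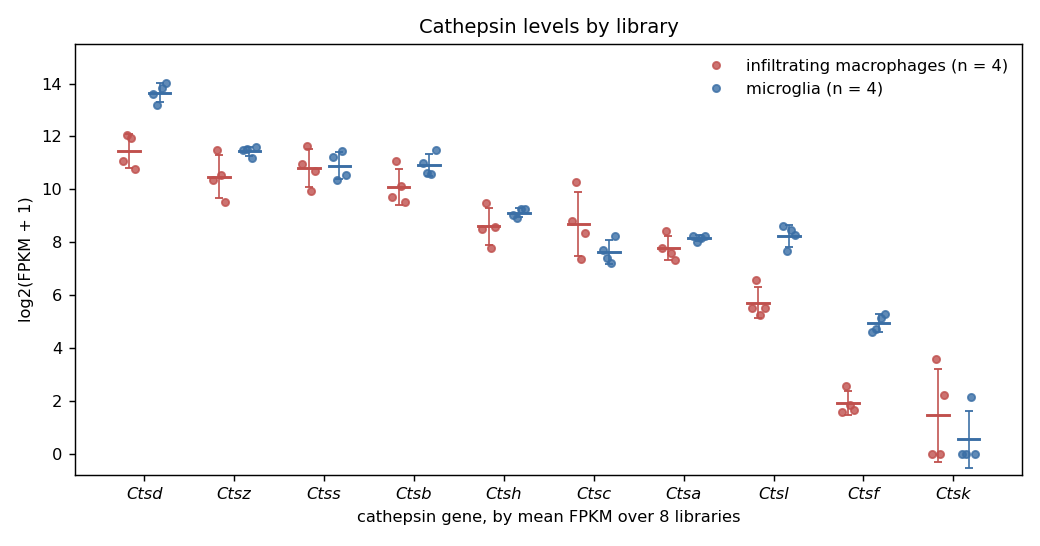
Levels of the 10 cathepsins as log2(FPKM + 1), with each point a library, each line a mean and each bar 1 SD (n = 4 each), infiltrating macrophages left and microglia right of each gene name. The points of Ctsd, Ctsl and Ctsf do not overlap between the populations, and those of the other 7 do.

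The libraries also differed in ways that run along the comparison. The Y-linked genes Uty, Kdm5d, Ddx3y and Eif2s3y together reached at most 1.97 FPKM in the macrophage libraries, lay between 11.7 and 25.8 FPKM in microglia 1 to 3, and were at 0.0533 FPKM in microglia 4. With a term for Y-linked expression 0 of the 9 cathepsins were called by limma, and 3 had an unadjusted p below 0.05. Over all 9352 tested genes that fit called 25, and 382 had an unadjusted p below 0.05. The log2 fold changes in that fit were -2.25 for Ctsd, -2.56 for Ctsl and -3.29 for Ctsf, with adjusted p = 0.247, 0.243 and 0.218. Microglia 4, the microglial library without Y-linked RNA, was above every macrophage library for each of these 3 genes. Set alone against the 4 macrophage libraries, a comparison chosen after seeing the data that assumes the lone library varies like the others, it left Ctsf called (limma adjusted p = 0.0442) and Ctsd and Ctsl not called (0.636 and 0.417), at log2 fold changes of -3.38, -2.54 and -2.56.

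Summed markers of the labelled populations followed the labels, while some single markers overlapped. A list of 10 microglial markers summed to between 700.3 and 2397 FPKM in infiltrating macrophages and between 2638 and 4028 FPKM in microglia, and a list of 10 markers of monocyte-derived cells to between 1897 and 5552 FPKM in infiltrating macrophages and between 857 and 1324 FPKM in microglia. Lyz2 alone, at 736 to 1243 FPKM in microglia, made most of the microglial sum of the second list. Sparc was at most 0.242 FPKM in infiltrating macrophages and at least 158.5 FPKM in microglia. Tmem119 overlapped, at 106 to 365 FPKM in infiltrating macrophages and 179 to 339 FPKM in microglia. Cx3cr1, Fcrls and, among monocyte-derived markers, F13a1 overlapped as well. The other markers of both lists did not overlap. The 6 markers of Müller glia and astrocytes summed to between 8.33 and 29.4 FPKM in infiltrating macrophages and between 50.7 and 74.7 FPKM in microglia, most of it Glul. Without Glul they summed to between 0.795 and 10.7 FPKM in infiltrating macrophages and between 4.12 and 21.4 FPKM in microglia, most of the microglial sum being Slc1a3, a glutamate transporter of glia. Slc1a3 did not overlap, at most 1.20 FPKM in infiltrating macrophages and between 4.12 and 18.2 FPKM in microglia, while Rlbp1, a defining Müller marker, was at 0.0673 to 4.21 FPKM in infiltrating macrophages and at most 0.12 FPKM in microglia. The 7 neutrophil markers analysed summed to between 42.3 and 241 FPKM in infiltrating macrophages, with Camp and Ngp at 0, and to at most 1.24 FPKM in microglia. The 8 photoreceptor markers summed to between 4.17 and 54.8 FPKM in infiltrating macrophages and between 26.3 and 175 FPKM in microglia, and the 5 erythrocyte genes to at most 23.7 FPKM in infiltrating macrophages and between 0.683 FPKM (microglia 4) and 2437 FPKM (microglia 3) in microglia. The 8 dendritic cell markers summed to between 16.5 and 151 FPKM in infiltrating macrophages and between 2.58 and 34.8 FPKM in microglia. The part of these cells in the cathepsin differences was not tested.

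The most abundant cysteine cathepsins did not pass the test. Ctss, an elastolytic protease that stays active at neutral pH and cuts the invariant chain, stood at 1989.6, 3173, 973 and 1669 FPKM in infiltrating macrophages 5 to 8 and at 2367, 1315, 2801 and 1503 FPKM in microglia 1 to 4. The libraries of both populations were interleaved. The log2 fold change was -0.09 with a 95% interval of -1.03 to 0.85 (limma adjusted p = 0.954), which leaves room for a difference in either direction. The sign of Ctss depended on the scaling and on the libraries kept, between -0.36 and 0.39.

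Ctsz, a carboxypeptidase, stood at 1293, 2881, 1482 and 735 FPKM in infiltrating macrophages 5 to 8 and at 2853, 2919.9, 2356 and 3081 FPKM in microglia 1 to 4. Macrophage 6 lay within the microglial range and the other 3 macrophage libraries below it. The log2 fold change was -0.97 (95% interval -1.90 to -0.04, unadjusted p = 0.0408, adjusted p = 0.311 by limma). Ctsb, which acts as an endopeptidase and as a dipeptidyl carboxypeptidase, had the same arrangement, with 830.0, 2128, 1103 and 728 FPKM in infiltrating macrophages 5 to 8 and 2031, 1571, 1524 and 2847 FPKM in microglia 1 to 4 (log2 fold change -0.82, 95% interval -1.75 to 0.11, limma adjusted p = 0.402). For both genes the FPKM values overlapped through macrophage 6 alone, the library with the largest FPKM sum (512049). As shares of the library's own FPKM sum, Ctsz overlapped through macrophage 7 alone, with macrophage 6 below every microglial library. On that scale Ctsb overlapped through macrophages 6 and 7.

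Ctsc was the 1 of these 9 cathepsins with a positive fold change. It encodes dipeptidyl peptidase I, which activates the serine proteases of granules. Its levels were 448, 1225, 162 and 321 FPKM in infiltrating macrophages 5 to 8 and 208, 168, 147 and 302 FPKM in microglia 1 to 4. Macrophages 5, 6 and 8 were above all microglial libraries and macrophage 7 was among them. The log2 fold change of 1.05 did not pass (95% interval -0.05 to 2.15, limma adjusted p = 0.363) and was 1.49 without macrophage 7 (adjusted p = 0.154) and 0.52 without macrophage 6 (0.658). Of 8 genes of granule proteases and their companions, Elane, Prtn3, Mpo, Gzma, Gzmb, Gzmc, Cma1 and Mcpt4, 0 reached the level required for testing, and the highest value was 3.44 FPKM, of Gzma in macrophage 8.

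Ctsh, an aminopeptidase, stood at 365, 723, 220.4 and 385 FPKM in infiltrating macrophages 5 to 8 and at 516, 485, 613 and 614 FPKM in microglia 1 to 4. Its log2 fold change was -0.52 (95% interval -1.45 to 0.42, limma adjusted p = 0.631). Ctsa, which protects β-galactosidase and neuraminidase in the lysosome besides its peptidase activity, varied least within both populations by the ratio of highest to lowest library, at 218, 339.9, 193 and 161 FPKM in infiltrating macrophages 5 to 8 and 301, 257, 287 and 301 FPKM in microglia 1 to 4. The microglial libraries lay close together and inside the macrophage range (log2 fold change -0.38, 95% interval -1.29 to 0.53, limma adjusted p = 0.738). Ctsk, the collagenolytic cathepsin of osteoclasts, was listed at 0 in macrophages 5 and 7 and in microglia 1, 2 and 4, and stood at 10.9 FPKM in macrophage 6, 3.60 FPKM in macrophage 8 and 3.47 FPKM in microglia 3. It lies 17423 bases before Ctss on chromosome 3, on the same strand. The files mark the Ctsk estimate as usable in every library, although without counts a listed 0 need not mean that no RNA was present. Annotated genes on the other strand overlap the loci of Ctsa (Neurl2 and Pltp), Ctsb (Fdft1), Ctsc (Gm17710) and Ctsz (Th1l), and the pseudogene Hmgb1-ps5 lies within Ctss, so reads of these pairs may be shared.

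**Figure D2:**
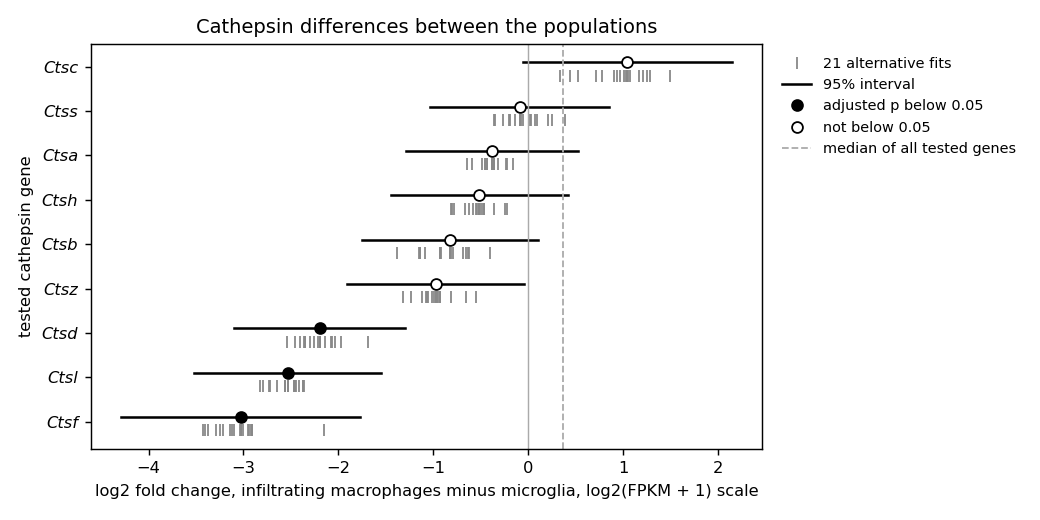
Log2 fold change of the 9 tested cathepsins, infiltrating macrophages minus microglia, as differences of log2(FPKM + 1), with the 95% interval as a line and the 21 other fits as ticks under it. Filled circles mark an adjusted p below 0.05 (Ctsd, Ctsl and Ctsf), and the dashed line marks the median of all tested genes, 0.37.

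The order of the cathepsins by level differed between the populations. In infiltrating macrophages the means ran Ctsd, Ctss, Ctsz, Ctsb, Ctsc, Ctsh, Ctsa, Ctsl, Ctsk and Ctsf. Neighbours in that order overlapped in their ranges except at 2 steps, where Ctsa was above Ctsl and Ctsl above Ctsk in all 4 libraries. In microglia the means ran Ctsd, Ctsz, Ctss, Ctsb, Ctsh, Ctsl, Ctsa, Ctsc, Ctsf and Ctsk. There Ctsd stood clear of Ctsz, Ctsb of Ctsh, Ctsh of Ctsl, Ctsc of Ctsf and Ctsf of Ctsk, while the ranges of Ctsz, Ctss and Ctsb overlapped in turn, and those of Ctsl, Ctsa and Ctsc likewise. Ctsc was number 5 in infiltrating macrophages and number 8 in microglia, and Ctsl number 8 in infiltrating macrophages and number 6 in microglia.

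As a pool, the 10 cathepsins summed to 7329, 14875, 8106 and 5799.5 FPKM in infiltrating macrophages 5 to 8 and to 21213, 16237, 22729 and 25456 FPKM in microglia 1 to 4. That was between 2.40% and 3.91% of the FPKM of all genes in infiltrating macrophages and between 4.66% and 8.60% in microglia, with no overlap. Without Ctsd the other 9 summed to between 4049 and 10582 FPKM in infiltrating macrophages and between 6941 and 8995 FPKM in microglia, and the populations overlapped. Ctsd made up 29.2%, 28.9%, 48.5% and 30.2% of the pool in infiltrating macrophages 5 to 8, against 59.1%, 57.3%, 64.3% and 64.7% in microglia 1 to 4. Macrophage 7 stood apart from the other 3 macrophage libraries and nearer to microglia.

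As shares of the FPKM of all genes in the library, Ctsd, Ctsf and Ctsl were again the 3 cathepsins without overlap between infiltrating macrophages and microglia, all lower in infiltrating macrophages. On that scale 11.6% of all tested genes did not overlap, and 2.47% did so as lower in infiltrating macrophages.

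The shares of the other cathepsins in the pool shifted with that of Ctsd, since shares of a pool are bound to sum to the whole. Ctss took 27.1%, 21.3%, 12.01% and 28.8% of the pool in infiltrating macrophages 5 to 8 and 11.2%, 8.10%, 12.3% and 5.90% in microglia 1 to 4, and macrophage 7 was inside the microglial range. Ctsc took 5.47 ± 2.59% in infiltrating macrophages, with macrophage 7 lowest at 2.004%, and 0.963 ± 0.228% in microglia (SD, n = 4 each). Ctsl, in contrast, held less of the pool in macrophages despite the smaller part of Ctsd, 0.619 ± 0.131% against 1.46 ± 0.29% in microglia, with no overlap. Ctsf likewise held 0.0321 ± 0.0041% in infiltrating macrophages and 0.141 ± 0.021% in microglia.

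**Figure D3:**
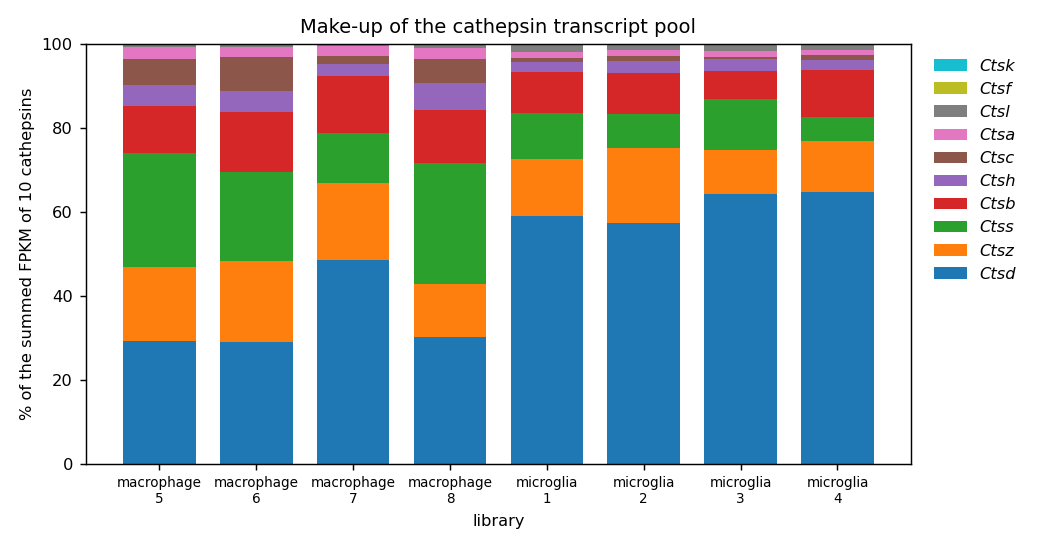
Share of each cathepsin in the summed FPKM of the 10, in percent, by library, with the 4 infiltrating macrophage libraries at left and the 4 microglial libraries at right. Ctsd, the lowest segment, takes 28.9% to 48.5% of the pool in infiltrating macrophages and 57.3% to 64.7% in microglia.

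Ratios between cathepsins within a library do not change when the whole library is scaled by a common factor, and are given without a test. Quantile normalization is not such a scaling and can change them. The ratio of Ctsl to Ctss was 0.0226, 0.0300, 0.0376 and 0.0268 in infiltrating macrophages 5 to 8 and 0.163, 0.153, 0.127 and 0.206 in microglia 1 to 4. The ratio varied little within either population, and the lowest microglial value was above the highest macrophage value by more than the whole range of the macrophages. The ratio of Ctsd to Ctss was 1.07, 1.35, 4.04 and 1.05 in infiltrating macrophages 5 to 8 and 5.29, 7.07, 5.21 and 10.96 in microglia 1 to 4. Macrophage 7 came near to the microglial libraries by this measure but not by Ctsl to Ctss. The mean of Ctsd to Ctss in infiltrating macrophages was 1.88, or 1.16 without macrophage 7, against 7.13 in microglia. The ratios of Ctsb to Ctss (0.417 to 1.13 in infiltrating macrophages, 0.544 to 1.89 in microglia) and of Ctsc to Ctss (0.167 to 0.386 in infiltrating macrophages, 0.0525 to 0.201 in microglia) overlapped between the populations.

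**Figure D4:**
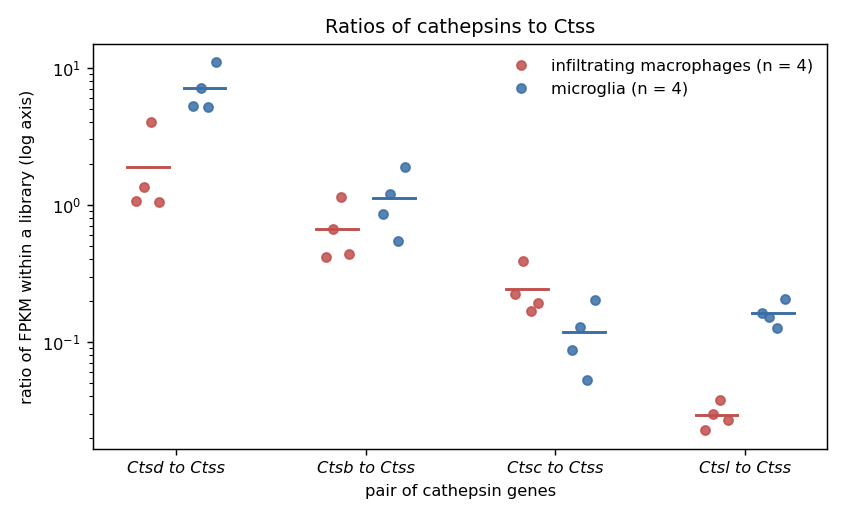
Ratio of the FPKM of Ctsd, Ctsb, Ctsc and Ctsl to that of Ctss within each library, on a log axis, with lines at the mean (n = 4 each), infiltrating macrophages left and microglia right. The ratio of Ctsl to Ctss is 0.0226 to 0.0376 in infiltrating macrophages and 0.127 to 0.206 in microglia, and macrophage 7 is the highest macrophage point of Ctsd to Ctss at 4.04.

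Among 14 genes of cathepsin inhibitors, 6 were tested, with 3 called lower in infiltrating macrophages and 0 higher by limma, at a median of -2.54. At an unadjusted p below 0.05, 5 were lower and 0 higher. For this list and those below, the limma shares over all tested genes were 0.695% called lower and 1.65% called higher. In either direction 15% of all tested genes had an unadjusted p below 0.05. Cst7, cystatin F, which is taken into lysosomes and restrains Ctsc and Ctsl, averaged 8.66 ± 8.07 FPKM in infiltrating macrophages and 777 ± 240 FPKM in microglia (SD, n = 4 each; log2 fold change -6.78, limma adjusted p = 7.8e-08). The ratio of Ctsl to Cst7 ran from 1.99 to 37.7 in infiltrating macrophages and from 0.287 to 0.579 in microglia. Ctla2a and Ctla2b, which resemble the propeptide of Ctsl and inhibit enzymes like it, stood at 0.902 ± 0.436 and 15.45 ± 10.05 FPKM in infiltrating macrophages and at 38.5 ± 25.55 and 98.5 ± 42.6 FPKM in microglia (log2 fold changes -4.19 and -2.75, limma adjusted p = 0.000531 and 0.00866). Ctla2a and Ctla2b are close copies, so the level of each is uncertain. The limma call of Ctla2b was lost without macrophage 8 (adjusted p = 0.0606), without microglia 2 and 3 together (0.0757) and with no filter on low values. Ctla2a was below 1 FPKM in macrophages 5, 7 and 8 (0.660, 0.583 and 0.828). It reached the level required for testing through microglia and macrophage 6, and in 18 of the 21 alternative fits. Ctla2a and Ctla2b were not called once a Y-linked term was in the fit (0.156 and 0.957), while Cst7 was. Cst3, the secreted cystatin C, averaged 2045 ± 824 FPKM in infiltrating macrophages and 5149 ± 2745 FPKM in microglia and was not called (adjusted p = 0.171).

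Genes of the sorting and maturation of cathepsins were not called in either direction, 0 of 14 tested by limma, at a median of -0.09. At an unadjusted p below 0.05, 1 was higher and 2 lower. Without overlap, 2 were higher and 1 lower, against 5.69% and 1.95% of all tested genes. Igf2r was listed but did not reach the level required for testing. Grn, progranulin, the most abundant of them by the mean of all 8 libraries, averaged 519 ± 196 FPKM in infiltrating macrophages and 796 ± 151 FPKM in microglia (limma adjusted p = 0.49). Psap, the prosaposin precursor of sphingolipid activators, lay on the other side, at 826, 1115, 706 and 709.97 FPKM in infiltrating macrophages 5 to 8 and 349, 342, 355 and 419.5 FPKM in microglia 1 to 4, with no overlap (log2 fold change 1.17, limma adjusted p = 0.173). The ratio of Ctsd to Psap accordingly had no overlap either, at 3.62 ± 1.44 in infiltrating macrophages and 35.9 ± 6.17 in microglia (SD, n = 4 each). Psap was singled out after its values were seen. Lgmn, the asparaginyl endopeptidase that matures several cathepsins, averaged 462 ± 290.4 FPKM in infiltrating macrophages and 391 ± 179.7 FPKM in microglia (log2 fold change 0.18, limma adjusted p = 0.901), and was likewise named after its values were seen.

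Of 20 genes of the proton pump and its partners that acidify the lysosome, 0 were called by limma, at a median of -0.29. At an unadjusted p below 0.05, against 15% of all tested genes, 1 of the 20 was higher and 2 lower. The most abundant, Atp6v1f, averaged 234 ± 137 FPKM in infiltrating macrophages and 463 ± 208 FPKM in microglia (limma adjusted p = 0.329). Of 34 other lysosomal enzymes and membrane proteins, at a median of -0.35, 5 were lower and 0 higher by limma at an unadjusted p below 0.05. After adjustment 1 was called lower and 0 higher, against 0.695% and 1.65% of all tested genes. It was Arsb, arylsulfatase B, at 4.31 ± 1.26 FPKM in infiltrating macrophages and 47.6 ± 23.6 FPKM in microglia (SD, n = 4 each; log2 fold change -3.07, limma adjusted p = 0.0043), and was not called with a Y-linked term in the fit (adjusted p = 0.368). Of the transcription factors that bind the CACGTG of lysosomal genes, Mitf was analysed here and was low, at 1.96 ± 0.59 FPKM in infiltrating macrophages and 2.55 ± 1.39 FPKM in microglia (adjusted p = 0.932).

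Ctss acts in class II antigen processing. Of 10 tested genes of that pathway, 4 were called higher in infiltrating macrophages and 0 lower by limma, at a median of 1.66. The shares of all tested genes were 1.65% higher and 0.695% lower. At an unadjusted p below 0.05, 6 of the 10 were higher and 0 lower. The 4 called genes (Cd74, H2-Aa, H2-Ab1 and H2-Eb1) were also called with the term for Y-linked expression. Cd74, the invariant chain cut by Ctss, averaged 5288 ± 2218 FPKM in infiltrating macrophages and 62.7 ± 51.8 FPKM in microglia. The ratio of Ctss to Cd74 was 0.315, 0.584, 0.453 and 0.230 in infiltrating macrophages 5 to 8, against 76.9, 27.7, 85.01 and 10.8 in microglia 1 to 4. H2-Ab1 and H2-Aa, the chains of the class II molecule, averaged 2968 ± 1524 and 1710.1 ± 858 FPKM in infiltrating macrophages and 22.8 ± 10.8 and 7.27 ± 7.59 FPKM in microglia. Of 6 osteoclast genes analysed, 3 were tested and Acp5, tartrate-resistant acid phosphatase, was called higher, at 128 ± 32.4 FPKM in infiltrating macrophages and 1.34 ± 2.07 FPKM in microglia (log2 fold change 6.12, limma adjusted p = 1.26e-06), with Ctsk at the values given above.

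**Figure D5:**
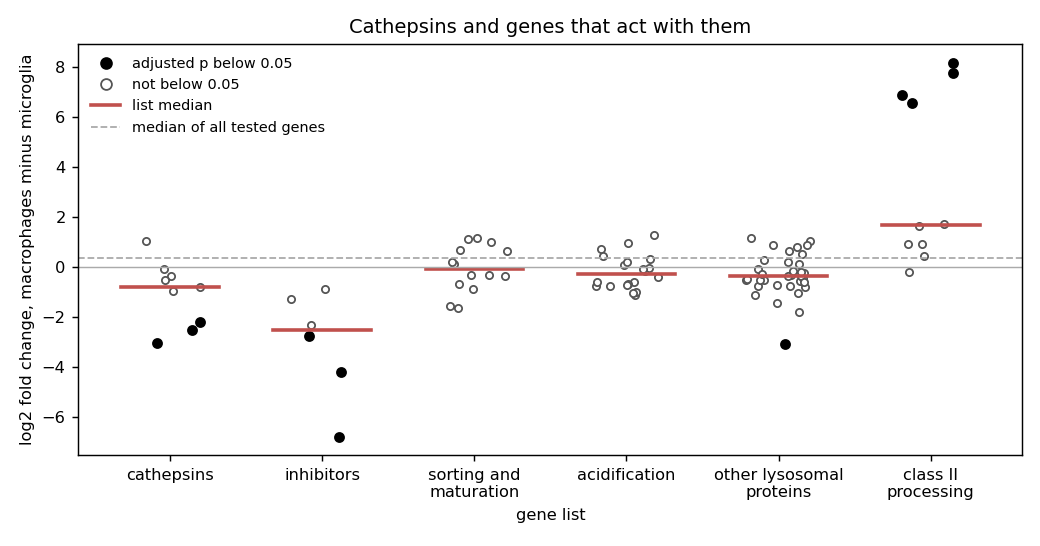
Log2 fold change, infiltrating macrophages minus microglia, of the tested cathepsins and of the tested genes of 5 lists, with red lines at list medians, filled circles for an adjusted p below 0.05 and the dashed line at the median of all tested genes (0.37). The called inhibitors lie with Ctsd, Ctsl and Ctsf below 0, the 4 called class II genes lie above 6, and no gene of sorting or acidification is filled.

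Of 13 further genes named as cathepsins, 2 were tested and 0 called (limma; 0 at an unadjusted p below 0.05). Ctso, a cysteine cathepsin, stood at 8.16, 20.03, 5.36 and 7.23 FPKM in infiltrating macrophages 5 to 8 and at 23.8, 0, 32.6 and 13.8 FPKM in microglia 1 to 4, and its microglial level therefore rested on the value of 0 listed for microglia 2. Its log2 fold change was -0.07 (95% interval -1.84 to 1.70, limma adjusted p = 0.981). Ctse, an aspartic cathepsin outside the lysosome, averaged 2.99 ± 1.88 FPKM in infiltrating macrophages and 1.16 ± 1.21 FPKM in microglia (SD, n = 4 each), with overlap (log2 fold change 0.94, 95% interval -0.29 to 2.17, limma adjusted p = 0.472). The other 11 were low or at 0 in every library, with Cts8 in microglia 3 highest at 4.19 FPKM.

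The genes whose profile over the 8 libraries was most like that of a called cathepsin, by Pearson r of log2(FPKM + 1), are given as a description without a test, since both sets mostly separate the 2 populations. For Ctsd they were Glul, glutamine synthetase (r = 0.988), and Ldhb, a lactate dehydrogenase subunit (r = 0.981). For Ctsf they were Ldhb (r = 0.986) and the adaptor Grap (r = 0.973), and for Ctsl Tmem132a (r = 0.979) and Gng12, a G protein subunit (r = 0.973). Ldhb averaged 34.8 ± 14.5 FPKM in infiltrating macrophages and 275 ± 35.4 FPKM in microglia (log2 fold change -3.03, limma adjusted p = 0.0005). Grap averaged 7.64 ± 4.86 FPKM in infiltrating macrophages and 65.6 ± 21.1 FPKM in microglia (adjusted p = 0.00277), while Glul, Gng12 and Tmem132a did not pass (0.0504, 0.0551 and 0.481). Ldhb and Grap were not called with a Y-linked term in the fit (adjusted p = 0.126 and 0.148).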

How the data were processed

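Messenger RNA of 4 infiltrating macrophage and 4 microglial libraries was analysed as grouped by the tissue subtype in the labels. The submitters' processing notes name Cufflinks 2.1.1, bcl2fastq 1.8.4 and mm9. Aligner and gene models: not given in the sources used here. The authors deposited 1 table of FPKM per library, per the file headers, with 23021 entries. Entries sharing a symbol were summed, and 9 symbols with a failed estimate were left out. The deposited intervals were not used, since 56 of the 80 cathepsin values lay outside their own. All libraries differed from one another in their values.

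Because deposited FPKM values are normalized, a count test was not run. The 9352 genes that reached 1 FPKM in 4 or more libraries were tested two-sided by limma 3.58.1 (R 4.3.3, eBayes trend) after log2(FPKM + 1), without a covariate, and Benjamini-Hochberg adjustment over all tested genes at 0.05. Exact tests used scipy 1.17.1 with numpy 2.4.6 and tables pandas 2.3.3 under Python 3.11.15. The test was tried on simulated data. Depth was estimated from the most frequent low value of genes with 1 transcript of at least 800 bases, at an assumed fragment length of 150: 11.7 M fragments in microglia 1 and up to 24.5 M in macrophage 5, so that 1 fragment on 2 kb is worth 0.022 to 0.046 FPKM. FPKM summed to between 207077 and 512049 in infiltrating macrophages and between 295881 and 392753 in microglia.

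The cathepsins and all gene lists were chosen with earlier results of these data known. Named genes are the 10 cathepsins, in each list up to 3 called members of highest mean or else the most abundant tested member, and the 2 genes most like each called cathepsin. Psap, Lgmn, Igf2r, Cst3, Ctse, Cts8, Gzma, H2-Eb1 and single markers were named after their values were seen. Alternatives were another pseudocount or filter, 4 scalings, other variance settings, a Y-linked term and libraries left out; 1 of them, without microglia 1, 2 and 3, was chosen after seeing the data. Tfeb, Tfe3, Tfec, Ly6g, Ocstamp and Dcstamp were not analysed here.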

Additional observations from a re-analysis of the deposited data

Results flagged for a closer look

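Among 54 groups of 4 libraries checked (each named gene in each population), 5 held a library far from the other 3 by Dixon's test. Chance flags about 1 in 20 where levels follow a normal distribution, which was not checked for these FPKM values. The number flagged is therefore only a description. Ctsk stood at 3.47 FPKM in microglia 3 and was listed at 0 in the other microglial libraries, so that any value above 0 would have been flagged. Ctsl stood at 95.2 FPKM in macrophage 6, against at most 45.0 FPKM in the other macrophage libraries. As a share of the library's own FPKM sum, Ctsl in macrophage 6 was close to macrophages 7 and 8. Cd74 stood at 139.6 FPKM in microglia 4, against at most 47.4 FPKM in the other microglial libraries. Glul stood at 67.6 FPKM in microglia 4, against at most 46.6 FPKM in the others. Grap stood at 14.9 FPKM in macrophage 6, against at most 5.73 FPKM in the other macrophage libraries.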

How the results depend on the processing

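The 3 calls among cathepsins became 1 with no filter on low values, 0 with the Y-linked term and 1 without microglia 1, 2 and 3 together, and were 2 to 3 with single libraries left out. The 219 calls over all tested genes became 136 with a pseudocount of 0.1, 50 with no filter, 95 with at least 1 FPKM in all libraries, 335 with equal FPKM sums, 25 with the Y-linked term and 66 without microglia 1, 2 and 3. With 1 library left out they ran from 78 (without macrophage 8) to 259 (without microglia 4), with 84 without macrophage 5 and 111 without macrophage 6. The 9 calls in the pathway lists became 14 under quantile normalization and 6 each with at least 1 FPKM in all libraries, with the Y-linked term and without microglia 1, 2 and 3, and were 8 to 11 with 1 library left out. The median of all tested genes ran from 0.17 to 0.56 with 1 library left out.

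Ctss turned positive with equal FPKM sums (0.0743), quantile normalization (0.39), the Y-linked term (0.0343), without microglia 1 (0.02), microglia 3 (0.10), macrophage 7 (0.20) and microglia 1, 2 and 3 (0.25). Ctso turned positive with a pseudocount of 0.1 (0.65), equal FPKM sums (0.0401), and without microglia 1 (0.34), microglia 3 (0.485), microglia 4 (0.09), macrophage 7 (0.15) and macrophage 8 (0.02), and Mitf without microglia 2 (0.0153). The lowest values with 1 library left out were -0.36 for Ctss, -1.21 for Ctso and -0.52 for Mitf. None of these values was called, and the cause was not tested. No paired analysis was possible because the populations share no replicate number. Libraries of 11.7 M to 24.5 M estimated fragments, 4 to a population, limit which differences can be told apart.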

Other observations

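Macrophage 6 had the highest FPKM of the 4 macrophage libraries for 10 of the 10 cathepsins. When each level was expressed as a share of the library's own FPKM sum, it was highest for 3 of the 10.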
